A study of Homo sapiens with 14 samples.

Results

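The genes described here encode the eukaryotic translation initiation factors, numbered eIF1 to eIF6, with the kinases that phosphorylate eIF2 and the proteins that bind eIF4E. They were taken by symbol, as every row of the deposited tables whose gene name begins with EIF and a digit from 1 to 6, leaving out names of pseudogenes. This gave 50 genes of 12202 listed in either table, all 50 in both, and left out 1 pseudogene. The 50 include EIF3J-AS1, a noncoding RNA gene beside EIF3J that shares the prefix and encodes no factor. EIF3C, which encodes another eIF3 subunit, was not analysed here.

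The samples were 14 RNA libraries of teloHAEC, a human aortic endothelial cell line immortalised with telomerase. For the siRNA arm, cells were reverse transfected with siRNA to CALCRL, the calcitonin receptor-like receptor gene (4 libraries), or with scrambled siRNA (4 libraries), and lysed 24 hours later. For the deletion arm, cells received by electroporation Cas9 with guides on both sides of a CALCRL enhancer (3 libraries) or Cas9 with a guide to HPRT (3 libraries), and were collected 2 days later. The labels name no selection of edited clones and do not say whether replicates were separate cultures, so p-values measure the spread between these libraries, which may be technical. The authors' deposited tables hold 1 comparison per arm and no value for a single library, so each gene is given by the means of its groups, its fold change and the error of that fold change. These group means were derived from the authors' mean normalised count and fold change.

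Initiation begins when eIF2, bound to GTP, carries the initiator methionyl-tRNA to the small ribosomal subunit together with eIF1, eIF1A, eIF3 and eIF5. The eIF4 factors bind the cap of the mRNA, unwind its leader and bring it to that complex, which then scans to the start codon, where eIF5B joins the large subunit. The pathway is controlled mainly at eIF2, which 4 stress kinases phosphorylate so that it blocks its own exchange factor eIF2B, and at eIF4E, which the eIF4E-binding proteins sequester when mTORC1 is inactive.

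Facts of the whole tables were as follows. CALCRL was at 34.0% of the scrambled control in the siRNA arm and at 36.2% of the control in the deletion arm, by the fold changes of the authors' deposited tables. Of 9 endothelial markers, 8 were listed in both tables, with mean normalised counts between 18.7 and 1873, and PECAM1 was the one not analysed here. None of 4 leukocyte and 5 fibroblast markers was listed. Of 4 epithelial markers KRT8 and KRT18 were listed, with summed mean normalised counts of 2313 (siRNA) and 3145 (deletion), and EPCAM and CDH1 were not. Of 4 smooth muscle markers ACTA2 and TAGLN were listed, summing to 407 and 213. KRT18 was at 219% of the control after the deletion (adjusted p-value 0.00425 by the authors' deposited table), and its part in the results below was not tested. The endothelial markers CDH5 and KDR were lower after the deletion, at 37.0% and 48.3% of the control by the authors' deposited table. None of the other listed endothelial markers had an adjusted p-value under 0.05 there. TEK (71.3%) and ERG (72.4%) lay below the control, and EGFL7 (104%), TIE1 (107%), CLDN5 (137%) and VWF (146%) above it. In bulk libraries such as these, fewer cells of a type and less RNA per cell cannot be told apart. The median standard error (SE) of a log2 fold change was 0.17 for the siRNA and 0.41 for the deletion, so the deletion arm was the less precise.

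Some initiation factor genes passed the threshold after the enhancer deletion, in both directions, and none did under siRNA. Among the genes called after the deletion, the highest folds were those of EIF6 (large subunit factor), EIF2B4 and EIF2B3 (exchange factor), and the lowest those of EIF2D (tRNA delivery), EIF4A2 (helicase) and EIF3M (scaffold). After the deletion, by the authors' deposited table, 16 of the 50 genes were called, meaning an adjusted p-value under 0.05 by the authors' DESeq2 Wald test over all genes, 9 of them higher and 7 lower. That was 32% of the genes, against 15.8% of all 11830 genes tested. The 50 were also measured at higher counts. Their median mean normalised count in this arm was 612, against 130 over all genes, and their median SE 0.30, against 0.41. The part of count level in the share called was not tested. The 9 higher were 18% of the genes against 7.4% of all genes, and the 7 lower were 14% against 8.44%. The median log2 fold change of the 50 genes was -0.01, and that of all genes was 0.00, so calls in opposite directions lay around a centre near 0. The median size of a change, whatever its direction, was 0.65 on the log2 scale, against 0.55 over all genes. With a Student t reference on 4 degrees of freedom in place of the normal, 0 of the 50 genes and 0 of all genes were called (11 of the 50 at an unadjusted p-value under 0.05), and with the Wald statistics divided by their robust SD of 1.88, again 0 and 0 (5 of the 50). At an adjusted p-value under 0.01, 7 of the 50 were called, against 6.64% of all genes. By the authors' DESeq2 test as deposited, 26 of the 50 had an unadjusted p-value under 0.05, against 29.7% of all genes.

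**Figure D1:**
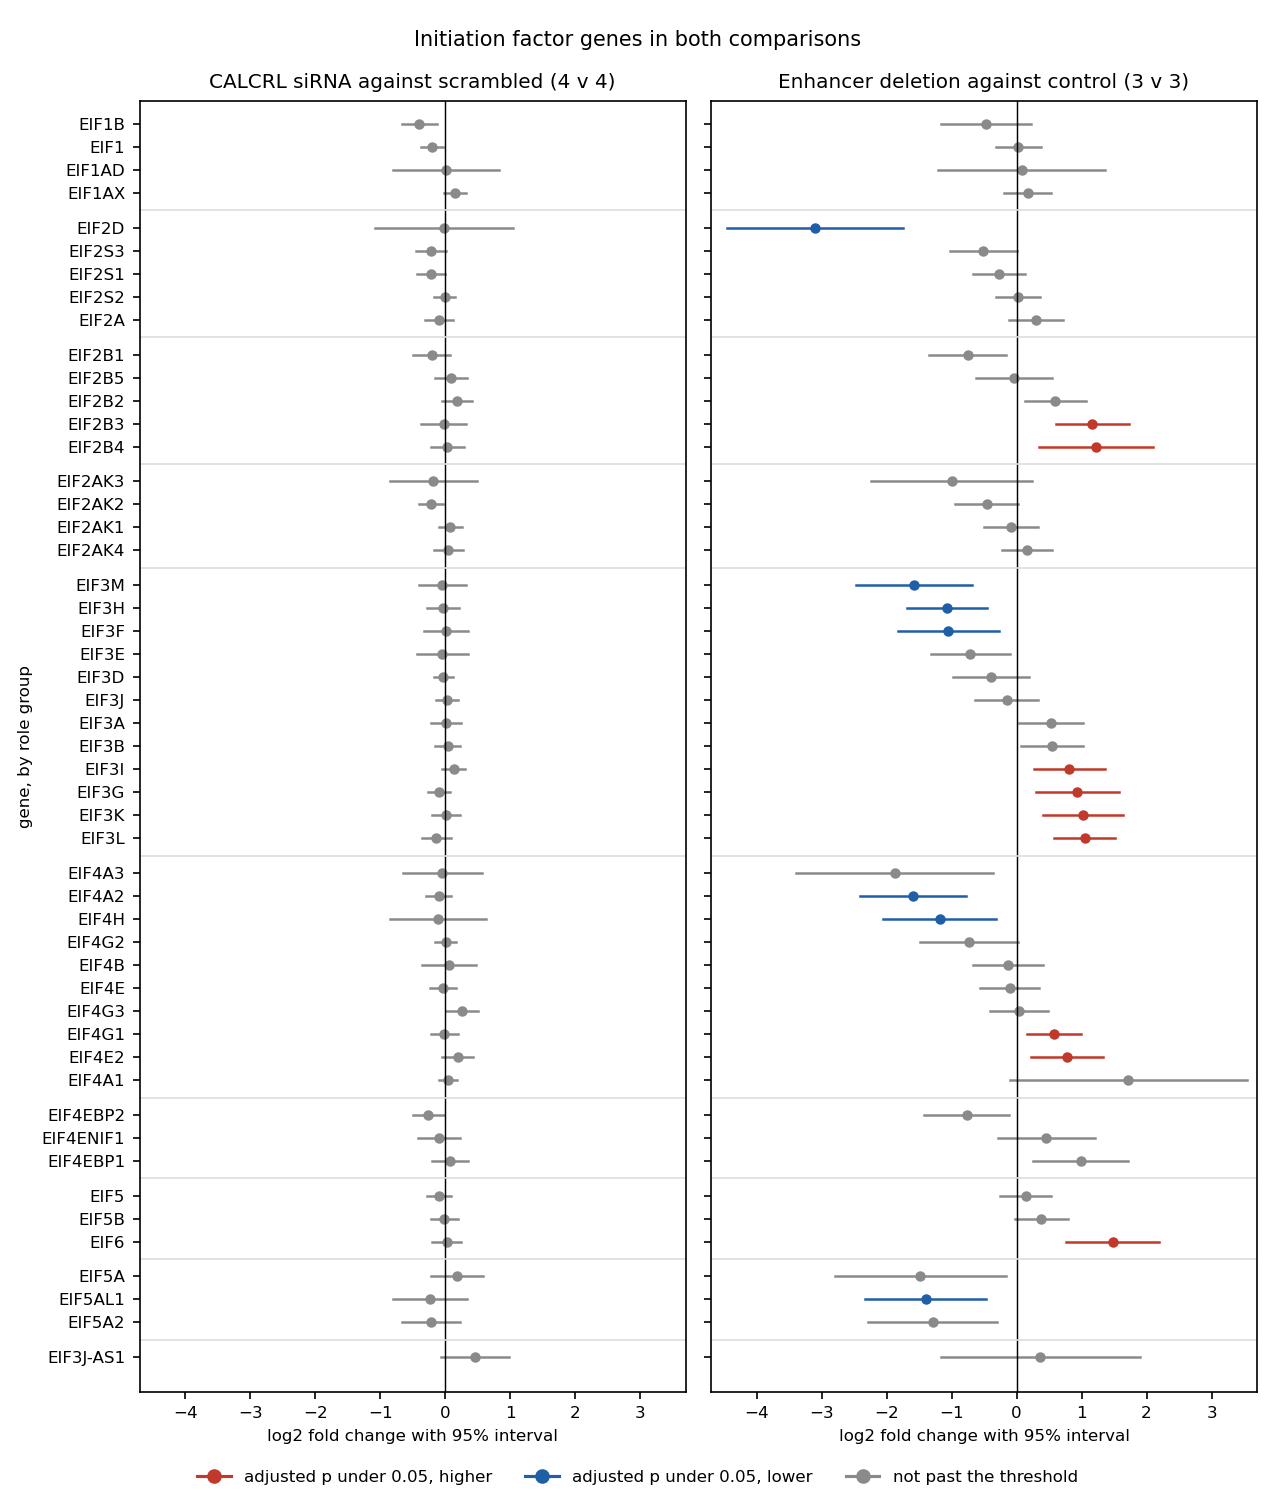
Log2 fold change (horizontal axis) of the 50 initiation factor genes, one per line and grouped by role, in the siRNA arm on the left and the deletion arm on the right. Points are the authors' deposited values and bars are 95% intervals, with genes past an adjusted p-value of 0.05 in red (higher) or blue (lower): 0 of 50 are coloured on the left and 16 on the right.

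Several mRNAs of the translation machinery begin with a C followed by a run of pyrimidines, the terminal oligopyrimidine tract through which mTORC1 and LARP1 control their translation. The annotated starts were therefore read from RefSeq promoter windows (GRCh38.p14), which matched 42 of the 50 genes. A start with C as its first base, in a run of at least 5 C or T, was found in 9 of the 42 genes (21.4%), namely EIF2A, EIF2D, EIF2S3, EIF3D, EIF3F, EIF3K, EIF3M, EIF4A2 and EIF4B. Among all genes of the deletion table with a match, 7.81% had such a start, as had 4.07% of all 35116 annotated starts. The windows of the 5 called genes among the 9 are shown with 2 higher genes that lack the tract, each with 15 bases before the start and 15 from it, and the pyrimidine run at the start in capitals.
EIF2D (chr1:206612451-206612480, minus strand): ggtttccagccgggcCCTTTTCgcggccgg
EIF4A2 (chr3:186783562-186783591, plus strand): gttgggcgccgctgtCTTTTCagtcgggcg
EIF3M (chr11:32583816-32583845, plus strand): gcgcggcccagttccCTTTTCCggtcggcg
EIF3F (chr11:7987322-7987351, plus strand): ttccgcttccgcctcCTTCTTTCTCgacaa
EIF3K (chr19:38619173-38619202, plus strand): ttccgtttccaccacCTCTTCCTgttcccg
EIF2B3 (chr1:44986581-44986610, minus strand): attgggctgtcagtcagaggcggcgtggag
EIF3I (chr1:32222392-32222421, plus strand): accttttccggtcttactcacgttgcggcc

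In the deletion arm, 4 of the 9 genes with a pyrimidine start were called lower (EIF2D, EIF4A2, EIF3M and EIF3F) and 1 higher (EIF3K), with a median log2 fold change of -0.51. Of the 33 genes with another start, 2 were called lower and 6 higher, with a median of 0.04. The 8 genes with no entry in the promoter table had 1 lower and 2 higher. Over all genes the same start went with no such lean, since 9.09% of 693 genes with it were called lower and 8.37% higher, with a median of -0.04, against 8.71%, 7.60% and 0.00 for 8185 genes without it. No test was made on these classes, which were taken up after the fold changes were known, and a match in the letters is not evidence of a tract in these cells.

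**Figure D2:**
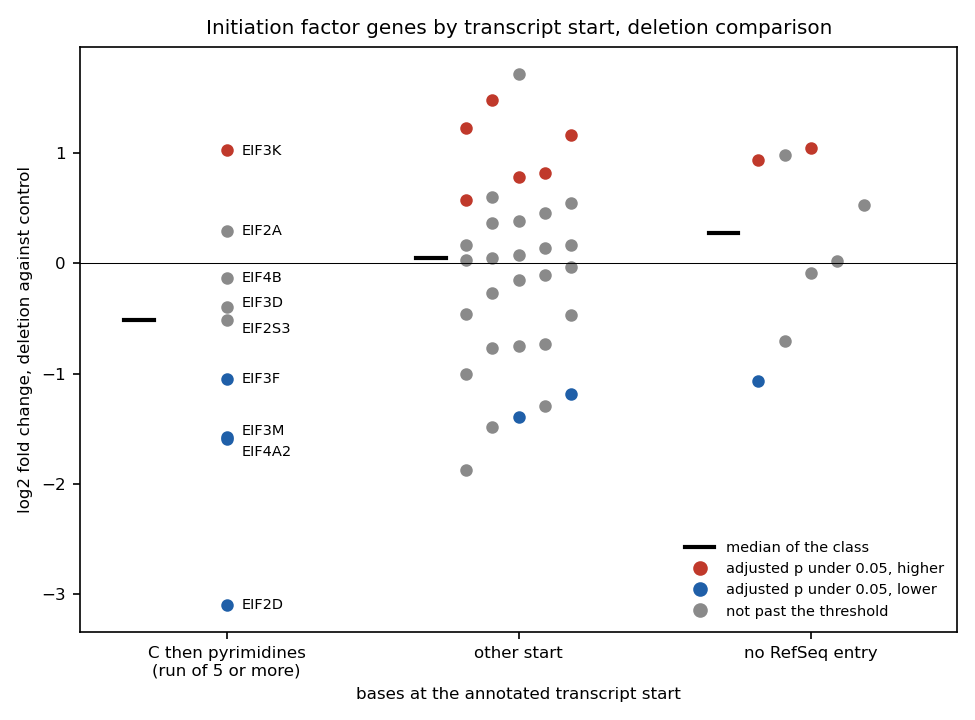
Log2 fold change in the deletion arm (vertical axis) of the initiation factor genes by the bases at the annotated transcript start, 1 point per gene and a bar at the median of each class. The 9 genes with a pyrimidine start, named beside their points, run from -3.10 for EIF2D to 1.02 for EIF3K.

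The largest assembly, eIF3, held 7 of the 16 called genes. It is a scaffold of many subunits that keeps the small subunit open for the mRNA and links it to eIF4G. Of its 12 genes, 4 were higher (EIF3L, EIF3K, EIF3G, EIF3I), 3 were lower (EIF3M, EIF3H, EIF3F) and 5 did not pass the threshold, with log2 fold changes from -1.58 to 1.05. The share called was 58.3%, against 15.8% of all genes. The median mean normalised count of the 12 was 1185, against 130 over all genes. With the GC trend described below removed, 4 of the 12 were called, 3 higher and 1 lower, against 12.4% of all genes.

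The lower genes encode subunits f, h and m, which sit together as a module of the mammalian complex. EIF3M (ENSG00000149100, chromosome 11) fell from an implied mean of 1102 normalised counts in the control group to 369 in the deletion group. That is 33.5% of the control (95% interval 18.0% to 62.2%), and the adjusted p-value of the authors' deposited table was 0.00886. EIF3H (ENSG00000147677) went from 1428 to 682, or 47.8% of the control (31.2% to 73.0%; adjusted p-value 0.00977 by the authors' deposited table). EIF3F (ENSG00000175390, chromosome 11) went from 551 to 266, or 48.4% (28.3% to 82.7%), with an adjusted p-value of 0.049997 by the authors' deposited table, just inside the threshold. By point estimate all 3 were thus reduced by more than 2-fold, but each interval also holds a smaller fall, and the intervals overlap each other.

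Higher genes came from other positions in the complex. EIF3K and EIF3L encode subunits k and l, which bind each other at the edge of the scaffold. EIF3L (ENSG00000100129, chromosome 22) rose from 1042 to 2156 normalised counts, 207% of the control (150% to 286%), with the lowest adjusted p-value of the eIF3 genes by the authors' deposited table, 0.000619. EIF3K (ENSG00000178982, chromosome 19) rose from 867 to 1762, or 203% (132% to 312%; adjusted p-value 0.0149 by the authors' deposited table). EIF3G and EIF3I encode subunits of the part that, with subunit b, reaches towards the mRNA channel. EIF3G (ENSG00000130811, chromosome 19) was at 192% of the control (123% to 298%) and EIF3I (ENSG00000084623, chromosome 1) at 176% (120% to 258%), with adjusted p-values of 0.0316 and 0.0309 by the authors' deposited table.

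The remaining eIF3 genes were not called. EIF3B and EIF3A, for the b subunit and the largest scaffold subunit, were at 146% and 144% of the control, with adjusted p-values of 0.0990 and 0.137 by the authors' deposited table. EIF3E and EIF3D, whose products bind each other and of which d can contact the cap of some mRNAs, were at 61.2% and 76.2% (adjusted p-values 0.0950 and 0.395 by the authors' deposited table). EIF3J, a loosely attached subunit, was at 89.99%, and its 95% interval ran from 64.5% to 126%. A level as high as that of EIF3L lies outside the interval of EIF3J.

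**Figure D3:**
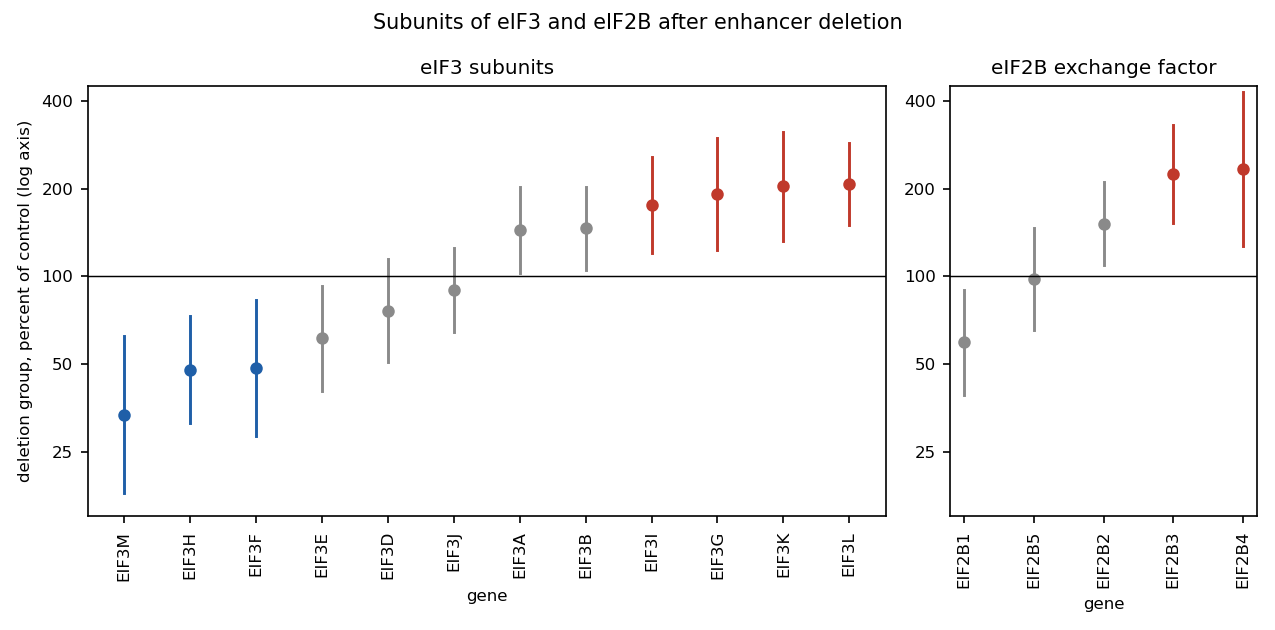
Level in the deletion group as percent of the control group (vertical log axis) for the 12 eIF3 genes and the 5 eIF2B genes, ordered by level. Points are the values from the authors' deposited fold changes and bars are 95% intervals, red for called higher, blue for called lower and grey for not called, so that EIF3M at 33.5% and EIF3L at 207% stand at the ends of eIF3.

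Of the 5 genes of the exchange factor eIF2B, 2 were called, both higher (40%, against 15.8% of all genes). It reloads eIF2 with GTP and is built of 5 subunits, of which the gamma and epsilon subunits (EIF2B3 and EIF2B5) catalyse exchange and the alpha, beta and delta subunits (EIF2B1, EIF2B2 and EIF2B4) sense phosphorylated eIF2. EIF2B3 (ENSG00000070785, chromosome 1) rose from 233 to 524 normalised counts, 224% of the control (152% to 331%), with an adjusted p-value of 0.00173 by the authors' deposited table. EIF2B4 (ENSG00000115211, chromosome 2) rose from 182 to 426, or 234% (128% to 428%; adjusted p-value 0.0419 by the authors' deposited table). EIF2B2 was at 152% (adjusted p-value 0.0671) by the authors' deposited table, and EIF2B5 at 97.8%, with an interval from 65.2% to 147%. EIF2B1 was at 59.4% (39.2% to 89.8%), with an adjusted p-value of 0.0709 by the authors' deposited table. The 2 called subunits were thus both higher, and each role held genes that did not pass.

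The eIF2 group held the lowest value of all 50 genes. EIF2D (ENSG00000143486, chromosome 1), a factor outside the eIF2 complex that can deliver tRNA without GTP and helps recycle ribosomes, fell from an implied 138 normalised counts to 16.1. It stood at 11.7% of the control, with an interval from 4.56% to 29.9%, and its adjusted p-value by the authors' deposited table was 0.000494. The 3 subunits of eIF2 itself were not called: EIF2S1 (alpha, the subunit that is phosphorylated) was at 82.9%, EIF2S2 (beta) at 101% and EIF2S3 (gamma, which binds the tRNA) at 70.0% of the control. EIF2A, an alternative carrier of the initiator tRNA, was at 123% (92.3% to 163%; adjusted p-value 0.3498 by the authors' deposited table).

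No eIF2 kinase was called in the deletion arm. EIF2AK1 (HRI, activated by haem shortage) was at 94.2% of the control and EIF2AK4 (GCN2, activated by amino acid shortage) at 112% (85.8% to 146%; adjusted p-value 0.617 by the authors' deposited table). EIF2AK2 (PKR, activated by double-stranded RNA) was at 72.75%, with an interval from 51.8% to 102%. EIF2AK3 (PERK, activated by stress of the endoplasmic reticulum) went from 42.7 to 21.4 normalised counts, with an interval from 21.2% to 118% of the control and an adjusted p-value of 0.285 by the authors' deposited table, so a large fall and no change both lie within the interval.

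Among the eIF4 factors, 2 genes were higher and 2 lower. EIF4G1 (ENSG00000114867, chromosome 3), the scaffold that joins the cap-binding protein, the helicase and eIF3, rose from 2975 to 4443 normalised counts, 149% of the control (112% to 199%; adjusted p-value 0.0421 by the authors' deposited table). EIF4E2 (ENSG00000135930, chromosome 2), a cap-binding protein best known for repressing translation, rose to 172% (117% to 253%; adjusted p-value 0.0428 by the authors' deposited table). EIF4A2 (ENSG00000156976, chromosome 3), one of the closely related helicases, fell from 517 to 171, or 33.1% (18.9% to 58.2%), with an adjusted p-value of 0.00338 by the authors' deposited table. EIF4H (ENSG00000106682, chromosome 7), which stimulates the helicase, fell from 339 to 150, or 44.1% (24.2% to 80.6%; adjusted p-value 0.0495 by the authors' deposited table).

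The other eIF4 genes did not pass the threshold. EIF4E, the cap-binding protein of general initiation, was at 93.0% of the control (68.0% to 127%), EIF4B at 91.2% and EIF4G3 at 103%. EIF4G2, a scaffold that lacks the eIF4E site, was at 60.2% (35.6% to 102%). EIF4A3, the helicase of the exon junction complex, was at 27.2%, but its interval ran from 9.57% to 77.5% and its adjusted p-value was 0.0752 by the authors' deposited table. Its standard error was 2.81 times that of genes of like mean count under siRNA and 2.89 times after the deletion. After the deletion, 2 of the 50 genes had a ratio over 2, EIF4A3 and EIF5A (2.75), against 0.913% of all genes.

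EIF4A1, the main helicase in most cells, had very different mean levels in the tables. Its mean normalised count was 2158 for the siRNA libraries and 41.9 for the deletion libraries, 51.5 times lower. For the other 49 genes the deletion table was between 0.613 and 1.91 times the siRNA table, with a median of 1.18. Only 2 of the 10891 genes in both tables had a lower ratio than EIF4A1, which ranked 3 from the bottom. SENP3, the gene next to it, had 61.97 and 47.2 normalised counts, so its levels were close in the tables. The cause was not tested. EIF4A1 had a log2 fold change of 1.72 (SE 0.93, adjusted p-value 0.198) after the deletion by the authors' deposited table, and its level ran from 93.5% to 1162% of the control within the interval.

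The eIF4E-binding regulators leaned in opposite directions without a call. EIF4EBP1, the binding protein best known as an mTORC1 substrate, was at 198% of the control (119% to 328%), and its adjusted p-value of 0.0504 by the authors' deposited table lay just outside the threshold. EIF4EBP2 was at 58.7% (37.3% to 92.4%; adjusted p-value 0.0955 by the authors' deposited table), and EIF4ENIF1, which carries eIF4E into the nucleus and to sites of mRNA decay, at 137% (81.8% to 231%).

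Of the late factors, EIF6 (ENSG00000242372, chromosome 20) was the highest called gene of the 50. It keeps free large subunits from joining small ones and is needed to make them. EIF6 rose from 803 to 2237 normalised counts, 279% of the control (170% to 456%), with an adjusted p-value of 0.00173 by the authors' deposited table. EIF5, which triggers GTP hydrolysis on eIF2, and EIF5B, the joining factor, were at 110% (84.2% to 144%) and 130% (98.3% to 173%) of the control, with adjusted p-values of 0.679 and 0.201 by the authors' deposited table.

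All 3 eIF5A genes were below the control and 1 passed the threshold. eIF5A is a factor with the modified residue hypusine that helps ribosomes through difficult sequences in elongation. EIF5AL1 (ENSG00000253626, chromosome 10), a near copy of EIF5A, was at 38.0% of the control (19.9% to 72.5%; adjusted p-value 0.0290 by the authors' deposited table). EIF5A was at 35.9% (14.4% to 89.4%) and EIF5A2 at 40.9% (20.6% to 81.1%), with adjusted p-values of 0.113 and 0.0601 by the authors' deposited table. Reads of EIF5A and EIF5AL1 may be hard to tell apart, so the share of each is uncertain.

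Of the eIF1 group none was called: EIF1, which guards start codon choice, was at 102% (80.0% to 130%), and EIF1AD, which has an eIF1A-like domain, at 106%. EIF1AX, which encodes eIF1A, was at 112% (87.3% to 145%) and EIF1B at 72.2% (44.6% to 117%), with adjusted p-values of 0.582 and 0.384 by the authors' deposited table. The noncoding EIF3J-AS1 was at 129%, with an interval from 44.6% to 373% at a mean of 31.8 normalised counts. It lies beside EIF3J on the opposite strand, and whether counting used the strand was not given in the sources used here.

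GC content moved with the direction of the calls. It was computed from the last 500 bases of the annotated transcript with the longest 3' UTR. A 3' library reads near transcript ends, and the end used in these cells may be another. The 9 higher genes had a median GC content of 50.4% and the 7 lower genes 32.6%, against 42.0% over all genes of the table. All genes were ranked by GC content and cut into 4 classes of like size. In the lowest class lay 14 of the 50, with 0 called higher, 4 lower and log2 fold changes with a median of -0.74, where all genes of that class had a median of -0.22. Of the 2822 genes of that class, 55 were called higher and 314 lower. In the highest class lay 10, with 4 called higher, 0 lower and a median of 0.56, against 0.45 for all genes there. Of the 2943 genes of the highest class, 486 were called higher and 130 lower, so calls leaned the same way over all genes. After subtraction of the trend with GC content, fitted to the log2 fold changes of all genes, 11 of the 50 were called (7 higher, 4 lower), against 12.4% of all genes, and in the siRNA arm 0 of the 50, against 3.26%.

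Of the 16, 7 were still called with the trend removed: EIF2B3, EIF2D, EIF3K, EIF3L, EIF3M, EIF4A2 and EIF6. Their log2 fold changes then were 1.27 for EIF2B3, -3.24 for EIF2D, 0.96 for EIF3K, 0.87 for EIF3L, -1.35 for EIF3M, -1.36 for EIF4A2 and 1.04 for EIF6. The calls of EIF2B4, EIF3F, EIF3G, EIF3H, EIF3I, EIF4E2, EIF4G1, EIF4H and EIF5AL1 ended. Among these the log2 fold change went from 0.58 to 0.08 for EIF4G1 and from 0.94 to 0.49 for EIF3G. It moved less for EIF3H (-1.07 to -0.73), EIF3F (-1.05 to -0.78) and EIF2B4 (1.22 to 0.96). It stayed close for EIF4H (-1.18 to -1.14), EIF4E2 (0.78 to 0.73), EIF3I (0.81 to 0.73) and EIF5AL1 (-1.40 to -1.23), whose adjusted p-values then lay between 0.0641 and 0.0671. EIF2B2, EIF3A, EIF5A and EIF5B were called with the trend removed and not without, at 0.68, 0.72, -1.88 and 0.63. The part of the trend in any single gene was not tested.

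**Figure D4:**
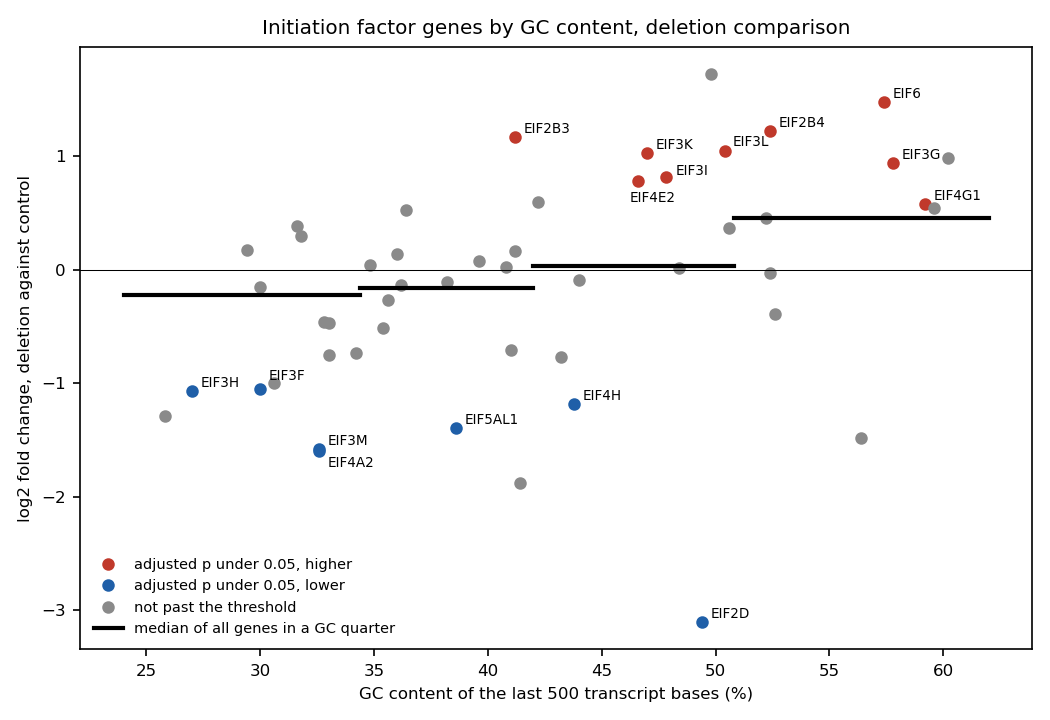
Log2 fold change in the deletion arm (vertical axis) against GC content of the last 500 transcript bases (horizontal axis, percent) for the 50 initiation factor genes, with called genes named. Black bars are medians of all genes of the table in each of 4 classes by GC content, rising from -0.22 to 0.45, and the called lower genes lie at lower GC content than most of the higher ones, EIF2D at 49.4% excepted.

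Variation between libraries of the siRNA arm differed among the lower genes. Against genes of like mean count, the standard error in the siRNA table was more than 2 times larger for 4 of the 50 (1.94% of all genes): EIF2D (3.44 times), EIF4A3 (2.81), EIF1AD (2.43) and EIF4H (2.42). EIF2D and EIF4H were called lower in the deletion arm. Over all genes, 214 had such a ratio, and 207 of these were below 0 in the deletion arm with a median of -2.01. Without the 4 genes, 14 of 46 were called in the deletion arm, 9 higher and 5 lower, against 15.8% of all genes with none left out. EIF4A2, EIF3H and EIF3F had ratios under 2, as had EIF3M (1.82). Whether variation between libraries has a part in the deletion values was not tested.

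Under siRNA against CALCRL, none of the 50 genes was called by the authors' DESeq2 test in their deposited table, where 3.46% of all 11261 genes were. At an unadjusted p-value under 0.05 there were 5 genes, 1 higher and 4 lower, against 12% of all genes (5.12% higher, 6.9% lower), and 1 and 3 genes with a Student t reference or with statistics divided by their robust SD. The median log2 fold change was -0.02, against 0.00 over all genes, and the values ran from -0.40 for EIF1B to 0.46 for EIF3J-AS1.

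Precision in this arm was high enough to bound most of the genes. For 39 of the 50, the 95% interval lay wholly within 0.5 of 0 on the log2 scale, against 50.3% of all genes, and in the deletion arm for 3, against 1.98%. The median SE of the 50 in the siRNA arm was 0.12, against 0.17 over all genes. All 12 eIF3 genes and all 5 eIF2B genes were among the 39, as were 9 of the 9 called higher after the deletion and 4 of the 7 called lower. The 11 that reached further were EIF1AD, EIF1B, EIF2AK3, EIF2D, EIF3J-AS1, EIF4A3, EIF4EBP2, EIF4H, EIF5A, EIF5A2 and EIF5AL1. EIF2D had the widest interval, from -1.08 to 1.04.

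The 5 genes at an unadjusted p-value under 0.05 were EIF1B, EIF1, EIF2AK2, EIF4EBP2 and EIF4G3. EIF1B, a close relative of EIF1, was at -0.40 (SE 0.14, adjusted p-value 0.0974) by the authors' deposited table, the lowest of the 50. EIF1 was at -0.21 (SE 0.09, adjusted p-value 0.237) and EIF2AK2 at -0.22 (SE 0.10, adjusted p-value 0.284) by the authors' deposited table. EIF4EBP2 was at -0.26 and EIF4G3 at 0.26, with adjusted p-values of 0.362 and 0.343 by the authors' deposited table.

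The 3' UTRs were searched for the word GTAACAA, which an earlier look at these same values had singled out. Among the 49 initiation factor genes with an annotated 3' UTR (GENCODE 29, sense strand), 7 carried it (14.3%), against 10.7% of all genes: EIF1, EIF1B, EIF2AK2, EIF2AK4, EIF2B2, EIF2S3 and EIF3F. The 4 with a negative log2 fold change under siRNA are shown in windows of 30 bases on GRCh38, with the word in capitals. The others had positive values, given below.
EIF1B (chr3:40312200-40312229, plus strand): gcagtaagatgGTAACAAaacctcatattg
EIF1 (chr17:41691538-41691567, plus strand): tgccatgtgaaGTAACAAactggtttttgg
EIF2AK2 (chr2:37105959-37105988, minus strand): ttgtatctattGTAACAAccactttaaaga
EIF2S3 (chrX:24077828-24077857, plus strand): attctagatgaGTAACAAagatctttttag

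Medians of the log2 fold change under siRNA were -0.21 for the 7 genes with the word and -0.02 for the 42 others, and over all genes -0.12 with it and 0.01 without. After the deletion, the same classes had medians of -0.46 and -0.01 among the initiation factor genes and -0.14 and 0.01 over all genes. EIF2AK4 (0.05), EIF2B2 (0.18) and EIF3F (0.02) carried the word and were above 0 under siRNA by the authors' deposited table. Because the word was chosen on these data, these values describe the genes and support nothing. The word GACGTA, singled out in the same way, was present in 3 of the 49 (6.12%, against 5.35% of all genes). These were EIF4A1, EIF5 and EIF5B, whose log2 fold changes under siRNA were 0.05, -0.09 and -0.01 by the authors' deposited table.

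Tested gene by gene from the fold changes and errors of both tables, the effects of the arms differed in 9 of the 50 genes, adjusted over 10891 genes to a p-value under 0.05. Of these, 5 had the higher value after the deletion and 4 after the siRNA. The 9 were 18% of the genes, against 13.7% of all genes, of which 6.49% were higher and 7.22% lower after the deletion. EIF3L had the lowest p-value, with a difference (deletion minus siRNA) of 1.19 (SE 0.26, adjusted p-value 0.00062 by a normal test of the difference), and EIF2D had the largest difference, -3.08 (SE 0.88, adjusted p-value 0.00949 by the same test). The other 7 were EIF6, EIF2B3, EIF3G, EIF3K, EIF3H, EIF4A2 and EIF3M. For the 7 called genes that are not among these 9, such as EIF4G1 (difference 0.60, adjusted p-value 0.0698 by the same test) and EIF3I (0.68, 0.0984), the effects were not shown to differ between the arms. The arms differ in delivery, time and control, which cannot be told apart. With the GC trend removed, 6 of the 50 differed, against 11.3% of all genes. These were 5 of the 9 (EIF2B3, EIF2D, EIF3K, EIF3L and EIF4A2) and EIF5A. EIF3G, EIF3H, EIF3M and EIF6 then no longer differed. Under a Student t reference, or with the statistics divided by their robust SD, 0 of the 50 and 0 of all genes differed. At an unadjusted p-value under 0.05 there were 15 and 2 of the 50 by these alternatives. By the normal test there were 18, against 28.3% of all genes by that test.

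Other genes of translation were taken from 2 lists of textbook partners. In the deletion arm 4 of 34 listed genes were called (11.8%, against 15.8% of all genes), 3 higher and 1 lower, and the median of their log2 fold changes was 0.18. EEF1D, a subunit of the exchange factor of elongation, was higher at 1.65 (SE 0.39, adjusted p-value 0.00107), and RPS6KB2, an S6 kinase, at 1.09 (SE 0.40, adjusted p-value 0.0477) by the authors' deposited table. MCTS1, which works with DENR in reinitiation, was higher at 0.85 (SE 0.32, adjusted p-value 0.0486) by the authors' deposited table. PABPC1, the poly(A)-binding protein that bridges to eIF4G, was lower at -0.99 (SE 0.27, adjusted p-value 0.00533) by the authors' deposited table. With the GC trend removed 6 of the 34 were called, 4 higher and 2 lower, against 12.4% of all genes. The call of RPS6KB2 then ended (0.37, adjusted p-value 0.596), and PAIP1 (1.08), NCBP1 (0.86) and PPP1R15A (-1.28) were called. Without that step, of the initiation partners 3 of 23 were called and of the elongation and termination genes 1 of 11. In the siRNA arm 0 of 35 were called by the authors' DESeq2 test, against 3.46% of all genes. By the same test 2 had an unadjusted p-value under 0.05, PABPC4 (-0.24) and PPP1R15B (-0.29), against 12% of all genes.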

How the data were processed

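QuantSeq 3' mRNA libraries of 14 samples were sequenced as single-end reads, per the labels' protocols. Per the file headers and names, the authors counted reads with featureCounts and compared groups with DESeq2. The submitters' processing notes name hg19 and edgeR 3.24.3, with no role given, and the aligner and annotation were not given in the sources used here. The deposited values are a mean normalised count (signal), a log2 fold change and SE, a Wald statistic (score) and p-values before and after adjustment for each gene, written with decimal commas. No depth per library can be given. The deposited statistic equalled fold change over SE, and the adjusted p-value a Benjamini-Hochberg adjustment over the table. With no counts, the authors' own test stands as the main test.

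Computed here (Python 3.11.15, scipy 1.17.1, statsmodels 0.14.6) were 95% intervals, group means, a normal test of the difference between arms adjusted over 10891 genes, and a lowess trend (span 0.3) on GC content. SE ratios compare a gene with 201 genes of nearest mean count. The difference test was run on simulated fold changes with normal errors of the size of the deposited SEs. Of genes given a true difference of 2 on the log2 scale 76% were recovered, and 7.88% of the calls were false. Because the errors were set by those SEs, this run cannot show whether the SEs are large enough. The trend removal was run on a simulated trend, and its correlation with GC content went from 0.62 to 0.00016. GENCODE 29 (GRCh38) gave 3' UTRs and GC content, with 11099 (siRNA) and 11630 (deletion) gene IDs found, and RefSeq the starts (GRCh38.p14). Of the GENCODE transcripts of a gene, the one with the longest 3' UTR was used. For a gene with several starts, a pyrimidine start at any of them counted.

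Every gene of the rule was named, with levels, intervals and adjusted p-values after the deletion for the genes called and for the ends of each role group. Names ending in P and a number were left out, except EIF4EBP1 and EIF4EBP2, which the rule keeps. The members and lists were chosen with earlier results of these data known. Coordinates of printed sequences are from GRCh38 and not from the authors' build.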

Additional observations from a re-analysis of the deposited data

Results flagged for a closer look

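For 9 of the 50 initiation factor genes, the effects of the siRNA and of the enhancer deletion differed by a direct test of the difference, against 13.7% of all genes. Each value is the log2 fold change of the deletion arm minus that of the siRNA arm, with adjusted p-values by a normal test over 10891 genes. Lower after the deletion were EIF2D at -3.08 (SE 0.88, adjusted p-value 0.00949) and EIF3M at -1.53 (SE 0.49, 0.0220). EIF4A2 was at -1.49 (SE 0.43, 0.00963) and EIF3H at -1.03 (SE 0.34, 0.0239). Higher after the deletion were EIF3K at 1.01 (SE 0.33, 0.0266), EIF3G at 1.03 (SE 0.34, 0.0236) and EIF3L at 1.19 (SE 0.26, 0.00062). EIF2B3 was at 1.19 (SE 0.34, 0.00907) and EIF6 at 1.45 (SE 0.38, 0.00438). In each of the 9 the siRNA value was not past the threshold and the deletion value was. With the GC trend removed 5 of the 9 still differed, and EIF3G, EIF3H, EIF3M and EIF6 did not.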

How the results depend on the processing

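No paired analysis was possible because the deposited comparisons give group results alone. Leaving out each replicate, other normalisations and a refit without the authors' own count filter could therefore not be run. In the deletion arm, 16 initiation factor genes and 4 partner genes were called. A Student t reference left 0 and 0, division by the robust SD 0 and 0, and an adjusted p-value under 0.01 left 7 and 2 (6.64% of all genes). A mean normalised count of at least 50 gave 18 of 47 and 5 of 34, with 1870 of all genes called (1874 without that filter). Leaving out near-identical copies gave 15 of 47 genes, against 15.8% of all genes. Of the 9 genes that differed between the arms, 0 were left under the Student t reference and 0 under the robust SD. With the GC trend removed 5 of the 9 were left, and with EIF5A 6 of the 50 differed (11.3% of all genes). The siRNA count was 0 under every alternative run. Medians of the 50 genes moved by less than their median SE, from -0.03 to 0.07 in the deletion arm. Removal of the GC trend turned the sign of values near 0, none of them called in that comparison with or without the trend. These were EIF5B under siRNA (0.0066), and in the deletion arm EIF2S2 (-0.088), EIF3J (0.12), EIF4B (0.071) and EIF4E (0.067). For the difference between arms they were EIF1B (0.14), EIF2S1 (0.14), EIF2S2 (-0.068), EIF3J (0.065), EIF4B (0.0019) and EIF4E (0.10). The robust SD and t alternatives move the p-values alone. Leaving out genes with a high siRNA SE, chosen after seeing the data, left 14 of 46 called and 8 differing. Over all genes, with none left out, the shares were 15.8% and 13.7%.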
